A study of Mus musculus with 10 samples.

Results

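The genes described here are the effectors of the Hippo pathway and a set of their best known targets: the coactivators Yap1 and Wwtr1 (the gene for TAZ), the DNA-binding partners Tead1, Tead2, Tead3 and Tead4, and the target genes Ccn1, Ccn2, Amotl2 and Ankrd1. A peak was taken as a member when it overlapped the gene body, as annotated by GENCODE release M21 on mm10, or the 10 kb on either side of it. By this rule 45 of the 123652 wild type peaks of the aryl hydrocarbon receptor (AHR) lay at 9 of the 10 genes, and 0 of the 1931 AHR KO peaks lay at any of them. The rule used no score and no motif.

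AHR is a sensor of small molecules that acts on genes directly, and its binding was mapped by chromatin immunoprecipitation with sequencing (ChIP-seq) in mouse colon organoids, which are epithelial cultures grown from crypts. Wild type and AHR KO organoids were kept in WENR, a Wnt-rich medium that holds them in a stem cell condition, and all of them received 5 nM of the tryptophan-derived ligand FICZ for 1 hour, so no culture without ligand was compared. Wild type organoids gave 4 AHR ChIP and 4 input libraries, whose peaks stand in 1 list with no value per culture. AHR KO organoids, in which Ahr fl/fl was deleted in the epithelium by Cre from the villin promoter, gave 1 AHR ChIP and 1 input library, and the number of KO cultures behind them is not given in the labels, although the study's methods describe the same number of biological replicates for both genotypes. No difference between the genotypes therefore has a replicate check.

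YAP and TAZ carry no DNA-binding domain of their own. When the Hippo kinases are active they phosphorylate both proteins, which are then kept in the cytoplasm or degraded, and when the kinases are quiet YAP and TAZ enter the nucleus and act through TEAD factors bound at sites around the word GGAATG. In the intestine this pathway is known for the regenerative, fetal-like state that follows injury. AHR with its partner ARNT binds the word TNGCGTG (N is any base), of which GCGTG is the core. All words below were searched on both strands in the 200 bp around the midpoint of a peak, and every copy of TNGCGTG also counts as a copy of GCGTG.

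The windows that bear most on AHR and TEAD words are printed here from GRCm38, which has the same sequence as mm10, on the plus strand. Capitals mark copies of the full AHR word TNGCGTG, of its core GCGTG or of the TEAD word GGAATG on either strand, and lower case carries no information on masking. The first pair are the only member windows with the full AHR word, and the third is the only one with both GCGTG and GGAATG (1 of 45, 2.22%, against 0.994% of all wild type windows).
Ccn2, 1.32 kb upstream of the start, chr10:24594021-24594220: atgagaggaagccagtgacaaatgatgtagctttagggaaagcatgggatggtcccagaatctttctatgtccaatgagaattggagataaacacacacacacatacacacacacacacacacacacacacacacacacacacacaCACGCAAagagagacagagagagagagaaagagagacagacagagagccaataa
Tead2, 15.8 kb downstream of the start, chr7:45231419-45231618: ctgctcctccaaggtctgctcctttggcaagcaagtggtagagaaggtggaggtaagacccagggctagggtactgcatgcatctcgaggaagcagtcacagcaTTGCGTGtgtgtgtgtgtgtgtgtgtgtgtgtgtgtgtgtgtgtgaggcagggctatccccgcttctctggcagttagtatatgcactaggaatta
Tead4, 39995 bp downstream of the start, chr6:128260728-128260927: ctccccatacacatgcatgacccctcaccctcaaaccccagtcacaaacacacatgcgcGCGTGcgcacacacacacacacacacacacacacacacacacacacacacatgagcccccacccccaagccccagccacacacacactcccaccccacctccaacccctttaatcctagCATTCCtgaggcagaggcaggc
In the Ccn2 and Tead2 windows the full AHR word sat directly at the edge of a long run of alternating C and A (or, on the other strand, T and G). In the Tead4 window the core lay 2 bp from such a run, and the TEAD word stood near the other end of the window.

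The next windows are the highest peak of Yap1, which held the core 4 times, the highest peak of Tead1 and a Tead4 peak, the latter pair with the TEAD word.
Yap1, 7.97 kb downstream of the start, chr9:7996529-7996728: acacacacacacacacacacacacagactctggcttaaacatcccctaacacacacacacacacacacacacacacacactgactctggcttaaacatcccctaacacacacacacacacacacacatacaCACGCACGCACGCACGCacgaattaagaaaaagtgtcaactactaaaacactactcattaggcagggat
Tead1, 176 kb downstream of the start, chr7:112854917-112855116: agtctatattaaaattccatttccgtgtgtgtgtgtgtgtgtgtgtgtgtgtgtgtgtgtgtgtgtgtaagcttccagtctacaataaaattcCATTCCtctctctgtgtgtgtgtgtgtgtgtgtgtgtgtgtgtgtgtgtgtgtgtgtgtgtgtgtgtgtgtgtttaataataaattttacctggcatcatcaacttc
Tead4, 74.9 kb downstream of the start, chr6:128225777-128225976: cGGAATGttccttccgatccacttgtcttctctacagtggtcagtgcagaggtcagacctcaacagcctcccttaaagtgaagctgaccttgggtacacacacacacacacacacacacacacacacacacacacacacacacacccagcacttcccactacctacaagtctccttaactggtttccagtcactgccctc
All of these are built on CA repeats. In the Yap1 window the 4 overlapping copies of the core formed a stretch in which CG stood in place of CA within the repeat.

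Peaks were common at protein-coding genes of all kinds. Of 21938 protein-coding genes, 78.3% held a peak of the wild type list in their window, and 9 of the 10 genes here did. The member windows held 5.88 peaks per 100 kb, against 4.53 over the windows of all protein-coding genes and 4.66 over the whole of the assembled chromosomes. Without Tead1, which alone had 19 of the 45 peaks, the value was 5.02.

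Longer genes held more peaks, so each gene was set beside others of like length. Tead1, whose window spanned 247 kb, had 19 peaks, and genes with a window of 0.8 to 1.25 times that length had a median of 11, with 7.76% of them at 19 or more. Tead4 had 7 peaks against a median of 4 and Tead2 had 4 against a median of 1, and 19.2% and 12.5% of genes of like window had at least as many. Tead3 had 3 against a median of 2, with 27.8% at 3 or more. Both coactivator genes lay on the other side.

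**Figure D1:**
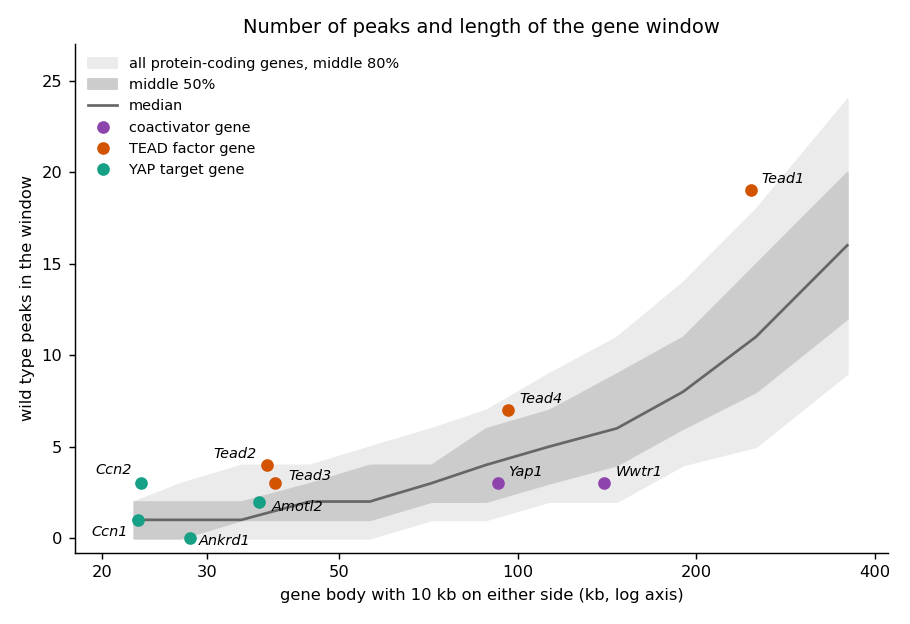
The number of wild type peaks in the window of each gene is plotted against the length of the window in kb on a log axis, with the median and the middle 50% and 80% of all protein-coding genes in grey. Tead1, Tead2 and Ccn2 lie at or above the upper edge of the middle 80%, while Yap1 and Wwtr1 lie below the median with 3 peaks each.

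Yap1, with 3 peaks in 92.6 kb, and Wwtr1, with 3 in 140 kb, had fewer than the median of 4 and 6 for genes of like window, and 72.0% and 86.2% of those genes had at least as many. Among the targets, Ccn2 had 3 peaks in 23.2 kb, a number reached by 11.6% of genes of like window. Ccn1 had 1 and Amotl2 had 2, each against a median of 1, and 62.3% and 48.2% of genes of like window had at least as many. Ankrd1 had 0. A window of the length of Ankrd1 held a peak at 68.1% of genes. With no value per culture these counts have no replicate error, and the differences in count between genes were not tested.

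Scores, the fold enrichment that the authors give each peak, were those of average peaks. The 45 member peaks ran from 3.23 to 10.6 with a median of 5.32 (quartiles 4.45 and 6.31), and the median of all wild type peaks was also 5.32 (quartiles 4.53 and 5.98). By role, the 6 peaks of the coactivators had a median of 4.67, the 33 peaks of the TEAD genes 5.98 and the 6 peaks of the targets 5.18. Of the member peaks, 8 were in the top 10% of the list, which begins at 7.14, with 4 at Tead1 and 4 at Tead4.

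The scores also show how few fragments stood behind a peak. Where a peak was scored against the genome-wide background its score is a whole multiple of 0.332, from which the fragment count follows. This held for 20 of the 45 member peaks (within 1.5e-05, more in proportion above a multiple of 5), with 11 to 31 fragments and a median of 17, while the other 25 have no known count. For 4 genes the highest peak had a 95% exact Poisson interval, which covers counting error only: that of Tead4 had 10.6 (7.33 to 15), that of Tead1 8.64 (5.71 to 12.6), that of Tead3 6.31 (3.88 to 9.79) and that of Yap1 4.98 (2.88 to 8.14). Neighbours in this order overlapped over most of their intervals, while those of Tead4 and Yap1 met only from 7.33 to 8.14. Within Tead4, the interval of the top peak did not reach those of the peaks at 37.8 kb (2.16 to 6.87) and 5.51 kb upstream (2.39 to 7.30). These peaks were picked for the highest or lowest scores of a gene. The intervals do not allow for that choice, so no difference between peaks is drawn from them.

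**Figure D2:**
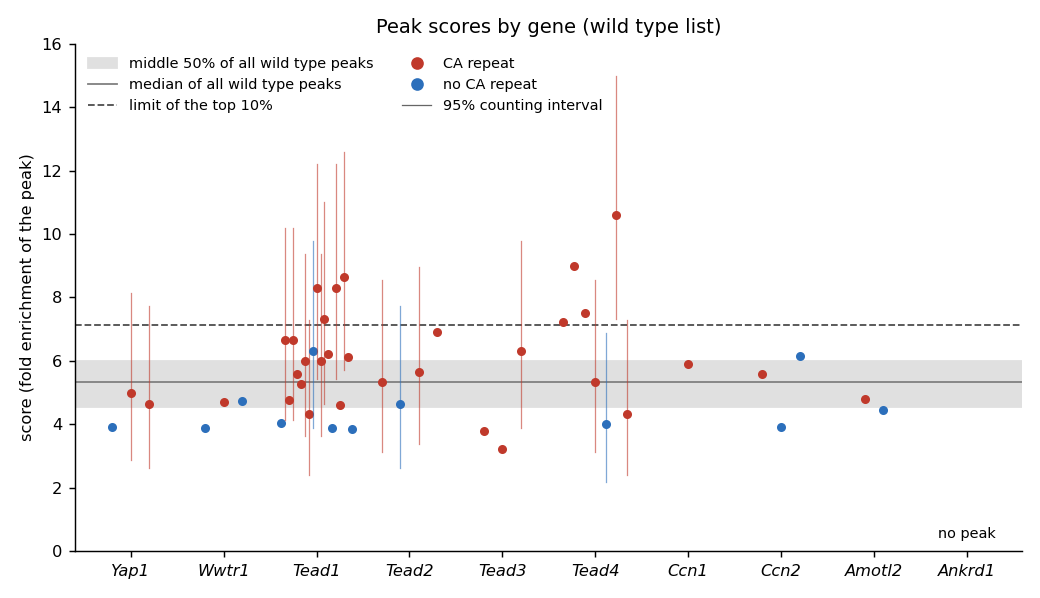
Each point is the score (fold enrichment) of 1 wild type peak, by gene, with the 95% counting interval where a fragment count could be read, over the middle 50% (grey band), median and top 10% limit of all wild type peaks. Peaks above the top 10% limit of 7.14 are seen at Tead1 and Tead4 only, and all of these are CA repeats (red). CA repeats also scored higher over the whole list, with a median of 5.65 against 4.65 for other peaks.

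The coactivators had no peak near their start. Yap1 encodes YAP, and of its 3 peaks 2 lay close together in the first part of the gene, 7.07 kb (score 4.65) and 7.97 kb (score 4.98) from the start, the former over an annotated exon and the latter in an intron. The third lay 82.3 kb from the start, beyond the end of the gene (score 3.90), and the nearest protein-coding start was that of Birc3, an inhibitor of apoptosis. Both peaks inside the gene held the core GCGTG, with 4 copies at 7.97 kb, and none of the 3 held TNGCGTG or GGAATG. All 3 scored below the median of the list.

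Wwtr1 encodes TAZ. Its peaks lay 14.0 kb from the start in an intron (score 4.72), 97.0 kb from the start in an intron (score 4.69) and 121 kb from the start, just past the end of the gene (score 3.87). None of them held an AHR or TEAD word. The intronic peak at 14.0 kb was fully soft-masked, that is, written in lower case in the reference as repeat, and none of its 100-base stretches, about the length of a read, was found only once in the genome. Some of these stretches had 5885 exact copies.

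The TEAD genes held 33 of the 45 peaks. Tead1 had 16 peaks in its body of 227 kb, 1 upstream at 5.69 kb and 2 beyond its end. The strongest were in introns, 176 kb (score 8.64), 167 kb (score 8.31), 76.8 kb (score 8.31) and 115 kb (score 7.31) from the start. All 4 were CA repeats, with uninterrupted runs of 22 to 61 bp, and none held GCGTG. The peak at 176 kb held the TEAD word once, between a pair of CA runs.

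Of the other Tead1 peaks 1 held the core, at 14.5 kb from the start (score 6.65), where the peak touched an untranslated exon and the core lay 61 bp from the CA run. The remaining intronic CA repeats lay at 21.2, 27.7, 34.8, 50.5, 59.5, 67.9, 100, 129 and 169 kb from the start, with scores from 4.32 (at 67.9 kb) to 6.65 (at 27.7 kb), and a further one lay beyond the end at 231 kb (score 6.11). The 4 peaks of Tead1 without a CA repeat were at 5.69 kb upstream (score 4.03) and at 70.0 kb (score 6.31), 132 kb (score 3.89) and 232 kb (score 3.85) from the start. Except for the peak at 70.0 kb, these scored lower than every CA repeat of the gene.

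Tead4 had the highest scores among the genes. Its top peak, in an intron 15.7 kb from the start, scored 10.6 on 31 fragments and ranked 869 in the list. Another 3 in introns near the end of the gene were in the top 10%, at 74.9 kb (score 8.99), 67.2 kb (score 7.50) and 75.7 kb (score 7.23) from the start. The TEAD word stood in the windows at 74.9 and 75.7 kb, and in the window at 39995 bp (score 5.32), so that 3 of the 4 member windows with GGAATG were at Tead4. The last intronic peak, at 37.8 kb (score 3.99), was the only one of the gene without a CA repeat, and the peak 5.51 kb upstream (score 4.32) was the nearest to the start.

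Tead2, the shortest gene of the family with 17.9 kb, had 4 peaks. One lay 2405 bp upstream (score 5.32), where the start of Dkkl1 was nearer. One in an intron at 14.5 kb (score 4.65) had no CA repeat, and 1 at 24.7 kb, beyond the end of the gene and 599 bp from the start of Slc6a16, scored 6.90. The peak at 15.8 kb (score 5.65) was the only one within 1 kb of a transcript start of its own member gene, 210 bp past the start of the short transcript Tead2-207, and it touched a coding exon. It held the full AHR word, and with 27.5% of its window soft-masked it was the least masked of all 45.

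Tead3 had peaks 6.33 kb upstream (score 6.31), 3605 bp upstream (score 3.23, the lowest of all members) and 2.91 kb downstream of the start (score 3.80), with its midpoint in an intron and its edge over an exon. All 3 were CA repeats. The last of these held the core 4 times, each copy touching the CA run or within 1 bp of it.

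All 6 peaks of the target genes lay outside the gene. The 4 gene bodies span only 3.01 to 16.7 kb. Of all protein-coding genes 49.7% had a peak in the gene body, but that share covers genes of every length. It was not matched to these short genes, so their lack of a peak is not read as a depletion. Ccn1 encodes a secreted matricellular protein, and its single peak lay 6.86 kb upstream (score 5.89) in a window made up of short CA runs, the longest of 13 bp, without an AHR or TEAD word. Ccn2 encodes the related protein CTGF. Its peaks lay 1.32 kb upstream (score 5.57), 5.50 kb downstream of the start (score 3.90) and 13.2 kb downstream of the start (score 6.15), and only the first had a CA repeat or an AHR word. It was the member peak closest to the annotated start of its gene.

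Amotl2 encodes an angiomotin family protein that binds YAP and is itself induced by it. Its peaks lay 6.21 kb upstream (score 4.79), a CA repeat, and 3.92 kb upstream (score 4.45), fully soft-masked and with 1 copy of GCGTG. Ankrd1, which encodes a muscle ankyrin repeat protein used as a YAP reporter, had no peak by the rule. The nearest one lay 13.3 kb from its start (score 5.26), outside the 10 kb taken.

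**Figure D3:**
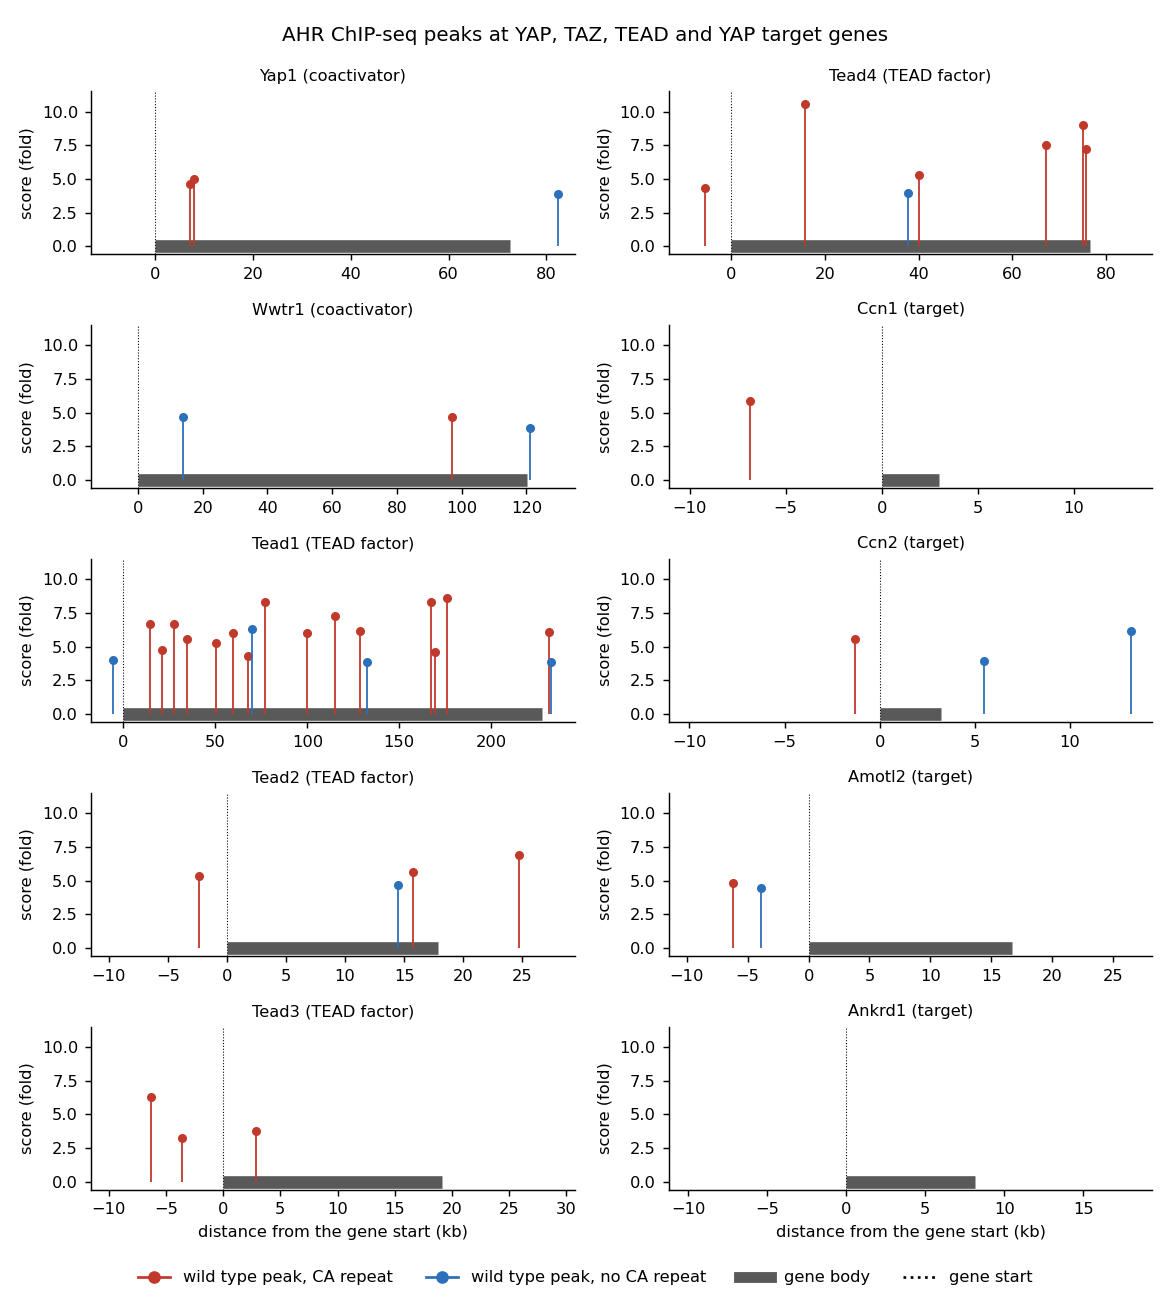
Wild type peaks are drawn as stems at their distance in kb from the start of each gene, in the direction of the gene, with the score (fold enrichment) as height, for all 10 genes on their own distance scales. No stem stands within 1 kb of the start of the gene drawn, and the gene bodies (grey bars) of Ccn1, Ccn2, Amotl2 and Ankrd1 carry none.

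By the position of the midpoint, 27 of the 45 peaks were in introns, 9 upstream, 7 downstream, 1 over an exon and 1 at the start of an internal Tead2 transcript (from 1 kb before to 100 bp after it). With the whole peak, those at 7.07 kb in Yap1, 14.5 kb in Tead1, 15.8 kb in Tead2 and 2.91 kb in Tead3 touched an exon of the gene. None lay within 1 kb of the annotated start of its own member gene, and 5 lay within 5 kb. For 33 of the 45 the member's own start was the nearest protein-coding start. These positions were not set beside those of the whole list, so they are not read as a trait of these genes. Over all protein-coding genes, 1.64% had a wild type peak over the 300 bp from 250 bp before to 50 bp after the start, and 0 of the 10 genes here did.

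The TEAD word stood at most of the promoters, where no peak was. In these 300 bp windows GGAATG was found at 7 of the 10 genes, against 13.5% of all protein-coding genes. Ccn2 held it 3 times, each time as the longer word GGAATGT, and Tead1 held it 3 times. GCGTG was found at 5 of the 10 (Yap1, Wwtr1, Tead1, Ccn1 and Amotl2), against 36.8% of all genes, and TNGCGTG at 0, against 5.81%.

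The promoters depend on which start is taken. RefSeq promoters of the same length were given for 7 of the 10 genes, and 6 of these held GGAATG (14.7% of all RefSeq promoters did), Ankrd1 with 2 copies where the GENCODE window had 0. None of the 7 held TNGCGTG. The Ccn2 peak 1.32 kb upstream did not reach the promoter window with its 3 TEAD words, and its own window held no GGAATG.

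In the peaks themselves, AHR and TEAD words were about as common as in any peak of the list. GCGTG was in 8 of the 45 windows (17.8%, 95% Wilson interval 9.29 to 31.3%), against 17.7% of all wild type windows. TNGCGTG was in 2 (4.44%, 1.23 to 14.8%), against 2.84%, and GGAATG was in 4 (8.89%, 3.51 to 20.7%), against 7.24%. The AP-1 word TGACTCA, a site often found beside TEAD sites, was in 0 of 45, which allows up to 6.67%, and in 1.28% of the list.

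Where an AHR core was present it mostly belonged to a repeat. Of the 8 windows with GCGTG 7 were CA repeats, and in 4 of these a copy touched the CA run: Yap1 at 7.97 kb, Tead2 at 15.8 kb, Tead3 at 2.91 kb and Ccn2 at 1.32 kb. In all wild type windows with GCGTG, 68.7% were CA repeats, and in those with TNGCGTG 33.2% were. The core at Amotl2, the only one without a CA repeat, and the core at 7.07 kb in Yap1 stood in fully soft-masked windows that also held CCCAGCACT, part of the consensus of the B1 short interspersed element. This B1 word was in 7 of the 45 windows (15.6%, 7.75 to 28.8%), against 4.98% of the list, and it was chosen after the windows had been read.

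Every member window was mostly soft-masked or held a CA repeat. A CA repeat, meaning 3 or more non-overlapping copies of CACACA or of TGTGTG, was in 33 of the 45 windows (73.3%, 59.0 to 84.0%), against 57.3% of all wild type windows. By role, this was 27 of 33 windows at the TEAD genes, 3 of 6 at the coactivators and 3 of 6 at the targets. The higher share thus came from the TEAD genes. The interval takes peaks as independent, although Tead1 alone gave 15 of the CA repeats. Windows with 50% or more of their bases soft-masked numbered 35 (77.8%, 63.7 to 87.5%), against 86.0%. None of the 45 was both under 50% soft-masked and without a CA repeat, a class that made up 1.21% of the list. The longest uninterrupted run in the CA repeats ranged from 11 to 61 bp with a median of 41 bp.

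**Figure D4:**
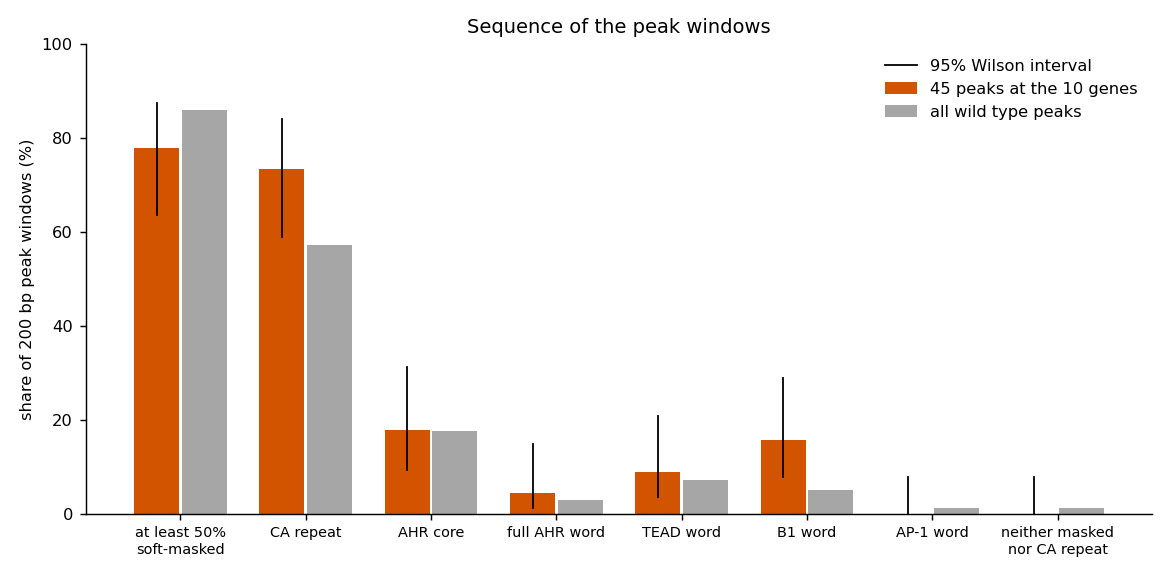
Shares (%) of the 45 member windows (orange, with 95% Wilson intervals) and of all wild type windows (grey) that hold each sequence feature in the 200 bp around the peak midpoint. CA repeats were in 73.3% of member windows and 57.3% of all, the B1 word in 15.6% and 4.98%, and the shares of the AHR and TEAD words lie within a few points of those of the list. Of the member CA repeats, 27 were at the TEAD genes.

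Score went with the CA repeat. The 33 CA repeats had a median score of 5.89 and the other 12 peaks a median of 4.01, and over the whole list the medians were 5.65 and 4.65. The highest score without a CA repeat was 6.31, at 70.0 kb in Tead1. The part of the repeat in the score was not tested.

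The 12 peaks without a CA repeat were at least 58.5% soft-masked. Exact stretches of 20 bases were shared in 12 of the 66 pairs of these peaks (18.2%), against 21.3% of pairs among 885 other peaks of the list without a CA repeat and in the same range of width, so such sharing was ordinary. The Wwtr1 peak at 14.0 kb shared 50 such stretches with the Tead1 peak at 232 kb, 10 with the Tead2 peak at 14.5 kb and 7 with the Ccn2 peak at 13.2 kb. The Wwtr1 and Ccn2 windows are printed for comparison, neither with an AHR or TEAD word.
Wwtr1, 14.0 kb downstream of the start, chr3:57561857-57562056: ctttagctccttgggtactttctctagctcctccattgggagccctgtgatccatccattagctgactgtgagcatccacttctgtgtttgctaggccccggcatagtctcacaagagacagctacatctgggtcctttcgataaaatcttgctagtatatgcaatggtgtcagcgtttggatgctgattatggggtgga
Ccn2, 13.2 kb downstream of the start, chr10:24608537-24608736: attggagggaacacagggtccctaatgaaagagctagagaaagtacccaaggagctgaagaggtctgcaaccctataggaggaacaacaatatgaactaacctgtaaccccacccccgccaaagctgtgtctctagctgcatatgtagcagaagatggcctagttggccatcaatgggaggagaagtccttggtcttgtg
A second group was made up of the Tead1 peaks 5.69 kb upstream and at 132 kb, the Tead4 peak at 37.8 kb and the Amotl2 peak 3.92 kb upstream, which shared 11 to 34 stretches in each pair and all held the B1 word.

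Most member peaks were nevertheless unique at about the length of a read. In 34 of the 45 every 100-base stretch of the peak occurred once in the assembled chromosomes, and in 1, the Wwtr1 peak at 14.0 kb, none did. In every 50th peak of the wild type list (2467 peaks) these shares were 68.7% and 6.40%. The peaks next lowest in such stretches were Tead1 at 232 kb with 44.2%, Wwtr1 at 121 kb with 56.0%, Tead1 at 132 kb with 67.8% and Yap1 at 82.3 kb with 73.3%, and all of these had scores under 4.

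In the AHR KO list no peak lay at any member, against 4.47% of all protein-coding genes with such a peak. The nearest AHR KO peak was 40.8 kb from Ccn1, 70.6 kb from Amotl2 and 99.2 kb from Ccn2, and over 100 kb from the other genes. None of the 45 member peaks touched an AHR KO peak, which allows a share of up to 6.67%, and over the list 1.51% did. That share rose with score, from 0.450% under 6, where 29 of the member peaks were, to 12.3% from 8 to under 11, where 5 were.

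The AHR KO list also had the lower background, while the library depths themselves are not known. The background read from the scores was 2.01 fragments in the wild type list and 0.287 in the AHR KO list, a difference of 7 times. It rests on the peaks whose scores were whole multiples of a step. These were 63809 of 123652 in wild type but only 333 of 1931 in AHR KO. The 20 member peaks with a known fragment count, 11 to 31 in wild type, scale to 1.57 to 4.43 fragments at the AHR KO background, while the 333 AHR KO peaks with a known count had at least 5. Loss of AHR and the lower background cannot be told apart at these 20 peaks, and for the other 25 the scaling could not be made.

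Most other genes of the pathway also had a peak. The core kinase list had a wild type peak at 7 of 7 genes, the upstream regulators and scaffolds at 19 of 19, the Vgll cofactors, which compete with YAP for TEAD, at 3 of 4 and further YAP targets at 14 of 16, which makes 43 of 46 (93.5%, against 78.3% of all protein-coding genes) with 5.58 peaks per 100 kb (4.53 over all, and 4.66 for the lists without Rbms3). Gene length was not taken into account here. The genes without a peak were Vgll1, Igfbp3 and Fjx1. AHR KO peaks lay at 5 of the 46, against 4.47% of all protein-coding genes: Amotl1, Myof, Crim1, Arhgef17 and Rbms3.

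The highest peaks of these lists were stronger than any at the members. They were at Rbms3 (score 20.8), the junction protein gene Tjp1 (17.6), Myof (17.1), Dock5 (15.3) and the kinase gene Stk3 (13.3). All 5 were CA repeats, against 57.3% of all wild type windows, a share not matched for score. The one at Myof also overlapped an AHR KO peak. With a window of 1077 kb, Rbms3 alone had 103 of the 319 peaks of the lists.

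For scale, the highest peak of each of 3 classical AHR target genes was examined in the same way. The highest peak of Cyp1a1, which encodes the xenobiotic-metabolising enzyme most strongly induced through AHR, scored 18, that of Ahrr, the AHR repressor, 11 and that of Cyp1b1 10.8. Their windows were 0 to 2.0% soft-masked, had no CA repeat and held TNGCGTG 2 or 3 times. No member peak had this combination, since the one with the least masking, at Tead2, held a single copy within a CA repeat. The combination was rare in the whole list too. Only 1.21% of its windows were under 50% soft-masked and without a CA repeat, and 2.84% held TNGCGTG at all.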

How the data were processed

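AHR ChIP-seq was carried out on FICZ-treated wild type (4 ChIP and 4 input libraries) and AHR KO (1 and 1) colon organoids. Per the study's methods, single-end reads were aligned to mm10 with BWA 0.7.15, duplicates were marked with Picard 2.1.1, and peaks were called against input with MACS 2.1.1. How reads with several matches were treated is not given in the sources used here. The deposited values are 2 peak lists with positions and a score, which from its values is a ratio, the fold enrichment of the pileup plus 1 over the background plus 1. Scores of single peaks were not compared between lists, and the AHR KO list's median score served once, as a limit on wild type peaks. Library depths are not in the files, so fragment counts were read from the score steps.

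Windows were the gene body and 10 kb on either side (GENCODE M21), an overlap counted from 1 bp, and printed starts are counted from 1. Sequence came from GRCm38 (chromosomes 1 to 19, X and Y). Python 3.11.15, numpy 2.4.6, pandas 2.3.3, scipy 1.17.1 and numba 0.67.0 were used. Intervals are Wilson or exact Poisson at 95%, a count of 0 allows 3, and both cover counting error only. No test was run, since the lists hold no value per culture. The members, the pathway lists, the words and the rule for named genes (all members, 3 known AHR targets, and from the pathway lists the 5 highest peaks, those with an AHR KO peak and those with no peak) were chosen with earlier results of these data known, and the definitions of the CA repeat, the B1 word, shared stretches and the score step were set once the lists were known. The counting steps were tested on simulated data.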

Additional observations from a re-analysis of the deposited data

How the results depend on the processing

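The 45 peaks became 29 when only gene bodies were taken and 96 with 50 kb on either side, where 10 of the 10 genes had a peak (97.6% of protein-coding genes) and 1, Ccn1, had an AHR KO peak (10.5%). With scores of at least the AHR KO list's median (6.84), 9 peaks at 3 genes were left (27.8% of protein-coding genes had one), and in the top 10% of scores 8 peaks at 2 genes (23.0%). With peaks under 50% soft-masked and without a CA repeat, 0 peaks at 0 genes were left (4.11%). Windows with GGAATG numbered 9 when 400 bp were searched (16.9% of the list) and 1 for the longer word GGAATGT (1.17%), and at a limit of 75% soft-masked 21 windows passed (62.3%). In the top 10% of scores, 19 of the 46 pathway list genes had a peak. The other 20 alternatives left their counts within 1.5 times of those given and the median score at 5.32 to 5.65. No paired analysis was possible because each list is a single set of peaks over all its cultures, and leaving out each culture was not run for the same reason. The 20 member peaks with a known count had 11 to 31 fragments, which limits statements on their scores, and with 1 AHR KO library of lower background nothing here separates the genotypes.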
